A study of Rhinolophus ferrumequinum with 8 samples.

Results

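The spleens of bats caught in November, in any of 3 states, were set against the spleens of bats caught in July. The comparison took 8 of the 8 libraries of the series, 6 from November and 2 from July, and the month and state given in the labels placed each library. All were whole spleens of wild female greater horseshoe bats (Rhinolophus ferrumequinum). The July bats were in the summer active state. The November bats were torpid (cold and with a slowed metabolism), in arousal at 2 h after capture, or in the winter active state at 26 h after capture. Each state had 2 libraries, named here by state and number, as in summer active 2. The labels call them biological replicates without saying that each came from 1 bat, and if some did not, the p-values cover only the spread between these libraries. The labels give no age or capture site, so the month and anything else that differed between the July and November bats cannot be told apart. The comparison asks which genes differed between summer and the mean of the 3 November states, so a gene could pass without differing in each state. Of 19652 protein-coding genes in the table, 13542 averaged at least 1 across all 8 libraries and were tested. Levels are TPM values (transcripts of each gene per fixed total) as rescaled by the authors, a unit that allows for transcript length. Differences are November minus July on the log2(level + 1) scale, with equal weight for each November state, and understate the change of genes at low levels. A gene passed when its limma p, adjusted by the Benjamini-Hochberg method over the genes tested, was under 0.05. The table holds no read counts, so the depth behind a value is unknown.

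The spleen filters blood. Macrophages of its red pulp take up worn red cells, break down their heme and return the iron, while B and T cells of its white pulp answer antigens carried in the blood. In many small mammals the red pulp also makes red cells: dividing precursors switch on the globin genes, the heme pathway and the proteins of the red cell membrane, then lose the nucleus. Hibernators pass the cold months in long bouts of torpor broken by short arousals, and blood cell numbers are known to change over such bouts.

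Spleen identity genes were present in each library. TLX1 and NKX2-5, transcription factors of the developing spleen, had levels of 15.4 to 46.0 and 16.9 to 48.8, and SPIC, a factor of red pulp macrophages, had levels of 144 to 939. The 2 July libraries differed more than the replicates of the other states (r = 0.915, against r from 0.937 to 0.959 for the November states, taken across genes, which are not replicates). Summer active 1 was closer to torpor 1 (r = 0.943) than to summer active 2. Genes typical of other organs also varied between libraries. The summed level of the hepatocyte list was 3171 in summer active 1 and 63.4 in summer active 2, and 51.4 to 21683 in November. That of the squamous epithelium and stomach list was 8.18 and 1640 in July and 3.82 to 1967 in November. The part of this tissue content in the results was not tested.

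On the deposited scale more genes passed as lower in November than as higher, among them most of the red cell genes tested. In all, 395 genes passed (2.92% of genes tested), of which 89 were higher (0.657%) and 306 were lower (2.26%). Where members of a list are counted below as having risen or fallen, they are members that passed, to be read beside those shares. The lower genes had a median difference of -1.75, and 39 of them fell by 3 or more on the log2 scale. Of those 306, 41 belonged to the red cell lists, which had 59 genes tested, and 31 to the cell cycle lists, which had 62 genes tested. A further 221 were in none of the 37 gene lists described here. The higher genes had a median difference of 1.23, 2 exceeded 3, and 78 of the 89 were in no list. Without regard to any test, all 6 November libraries lay above both July libraries for 1269 genes (9.37%) and below both for 1397 genes (10.3%). The median difference over all genes tested was 0.03, with 7133 differences above 0 and 6409 below 0.

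These counts leaned on single libraries. Without summer active 2 only 2 genes were higher and 43 lower, whereas without summer active 1 there were 185 and 449. Without 1 November library, higher and lower genes numbered 50 and 161 (torpor 1), 24 and 135 (torpor 2), 31 and 183 (arousal 1), 54 and 197 (arousal 2), 29 and 152 (winter active 1) and 14 and 102 (winter active 2). Across all 8 such fits, 42 genes kept the call, of which 41 were lower and 23 were in the red cell lists. In 251 of the 306 lower genes (82.0%) the level in summer active 2 was above that in summer active 1, as it was for 53.8% of all genes tested. Treating November as 1 group of 6, so that differences between its states count as error, gave 49 higher and 242 lower genes, among them 33 of the 89 and 224 of the 306.

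The scale of the columns mattered for the higher genes. In July 4 genes held 29.9% and 29.5% of the column totals, against 0.00725% to 3.13% in November. Setting each column to a total of 1000000 moved the all-gene median to 0.54 and gave 4470 higher and 289 lower genes, so that 93.9% of calls were higher in place of 22.5%. With those 4 genes left out of the totals, a step added after the data were seen, the counts were 90 and 251 and the all-gene median was 0.11. All other levels and differences are on the deposited scale.

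The 3 November states did not differ from each other past the threshold in any gene. The F test of limma gave no gene at an adjusted p under 0.05 (smallest 0.247), while 1982 genes (14.6%) had an unadjusted p under 0.05. With no filter, without winter active 1 or without winter active 2, 1 gene passed it. The median difference of the 306 lower genes was -1.53 in torpor, -1.93 in arousal and -1.74 in winter active, all against the same 2 July libraries. For the 89 higher genes it was 0.98, 1.68 and 1.28. The difference was widest in arousal for 192 of the lower and 62 of the higher genes. Each state was also set against July within the same fit of all 8 libraries. In torpor 10 genes were higher (0.0738%) and 66 lower (0.487%). Counts were 323 (2.39%) and 425 (3.14%) in arousal, and 19 (0.14%) and 121 (0.894%) in winter active. In 230 of the lower and 30 of the higher genes each of the 3 states differed by at least 1 in the same direction.

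**Figure D1:**
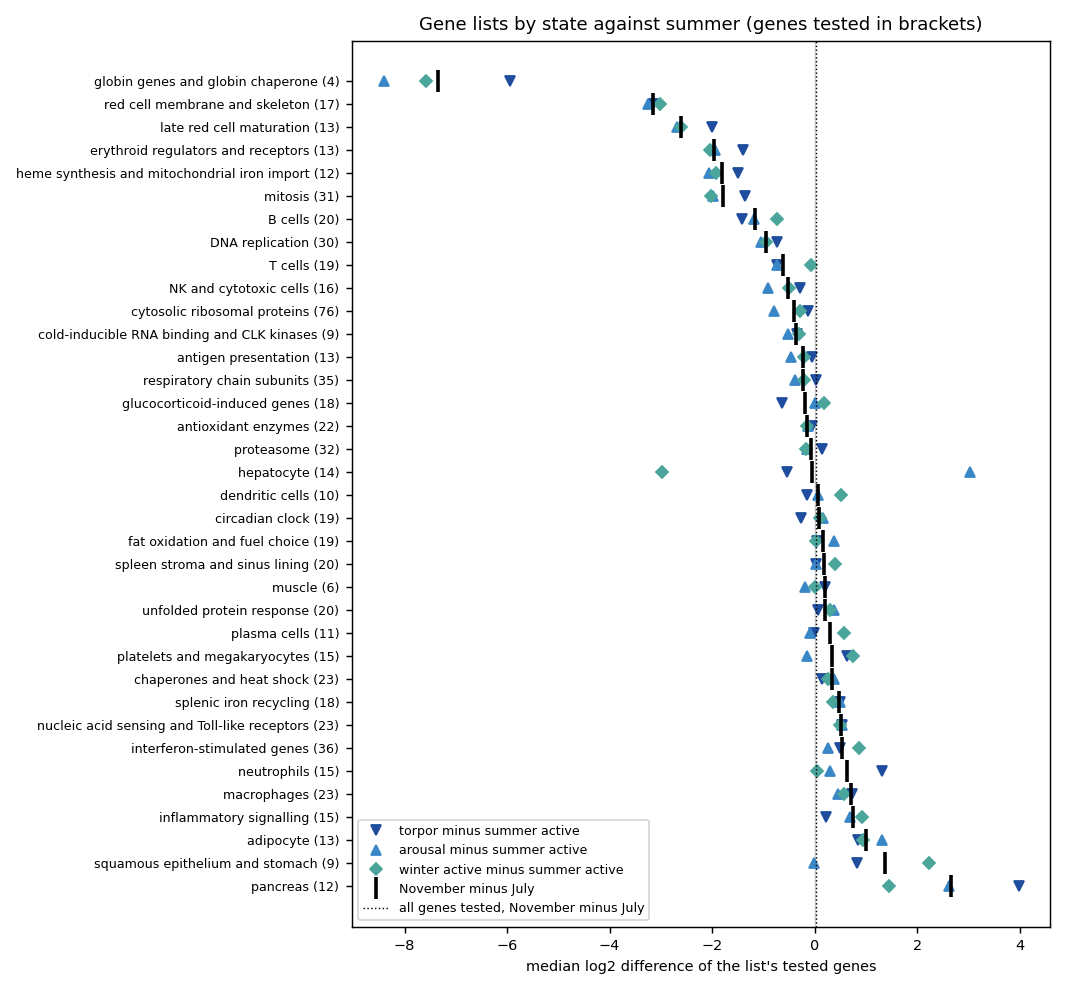
Median log2 difference of the tested genes of each gene list, with the number tested in brackets. Triangles and diamonds give torpor, arousal and winter active minus summer active, the bar gives November minus July, and the dotted line marks the median over all genes tested (0.03). The 5 red cell lists and the mitosis list lie farthest to the left, from -7.35 to -1.79, and the hepatocyte list has the 3 states far apart.

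Globin genes and their chaperone were the most reduced list. Of its 11 symbols 4 could be tested, AHSP, HBZ, HBM and HBQ1, and the adult HBB, HBA1 and HBA2 were not among them. All 4 members tested fell (median -7.35). All 4 were lower in every November library than in both July libraries, against 10.3% of all genes. AHSP, the chaperone of free alpha-globin (NCBI gene 117019823), had levels of 2514 and 3548 in July, 65.4 and 23.3 in torpor, 0.633 and 1.10 in arousal, and 7.21 and 1.56 in winter active. The November libraries thus lay far below July, with torpor above the other 2 states. Its difference was -8.74 (SE 0.51, adjusted p = 0.000553). The embryonic globin HBZ (NCBI gene 117019389) stood at 72.8 and 68.0 in July, at 0.606 and 0.205 in torpor and at 0.155 in winter active 1, and was listed at 0 in the other 3 libraries (difference -5.96, adjusted p = 0.000203). HBM, a globin of the alpha cluster, stood at 1765 and 3151 in July and at most at 25.5 in November, and was listed at 0 in arousal 1 and winter active 2 (difference -8.80, adjusted p = 0.00659). HBQ1, the theta globin of the same cluster, went from 22.1 and 24.6 to at most 0.430 (difference -4.48, adjusted p = 0.000553). Globin genes are related in sequence, and whether reads were shared between them is not known from the files. Differences of genes near 0 depend on the pseudocount, and with 0.1 in place of 1 the list median was -8.85. HBM lost the call without summer active 2 (adjusted p = 0.0792). In whole tissue, fewer cells of a type and less RNA per cell cannot be told apart.

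The 4 genes highest in July carry locus numbers in place of names and were singled out after their values were seen. LOC117019384 and LOC117019380 lie next to each other between HBM and HBQ1 in the annotation. LOC117030459 and LOC117030460 are neighbours elsewhere. LOC117030459 had levels of 157267 and 187703 in July, 8163 and 12207 in torpor, 18.1 and 210 in arousal, and 2166 and 54.7 in winter active. Replicates in arousal and winter active thus differed by large factors. Its difference was -8.15 (SE 1.37, adjusted p = 0.0296), those of LOC117030460 and LOC117019384 were -7.82 and -7.51 (adjusted p = 0.0399 and 0.0471), and that of LOC117019380 was -6.99 without passing (adjusted p = 0.0615). All 3 calls were lost without either July library or either torpor library and without arousal 1 (adjusted p = 0.0523 to 0.24), and that of LOC117019384 also without winter active 2 (0.0539). They were lost as well with no filter, with robust eBayes and with November as 1 group (0.0605 to 0.131), and those of LOC117030460 and LOC117019384 under quantile normalization (0.0782 and 0.0939). LOC117019380 passed without winter active 1 (0.0338) and on columns set to 1000000 (0.0215).

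**Figure D2:**
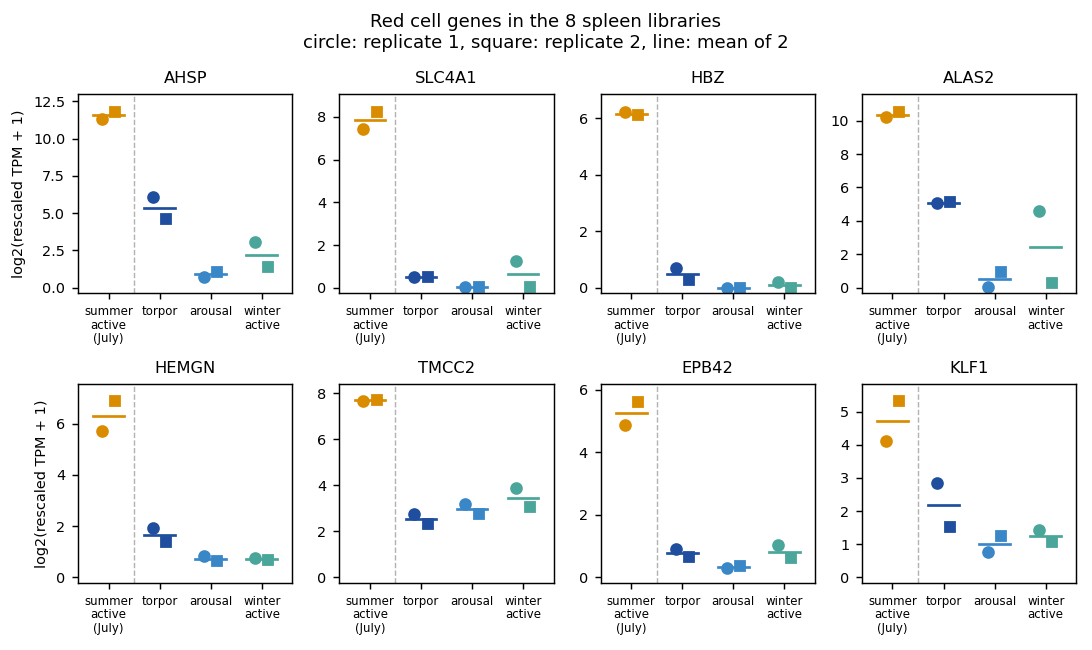
Levels of 8 red cell genes in the 8 libraries, as log2(rescaled TPM + 1). Circles are replicate 1, squares are replicate 2, lines are means of 2 libraries, and the dashed line parts July from November. In each panel the 6 November libraries lie below both July libraries. AHSP and ALAS2 are higher in torpor than in arousal, and KLF1 stands highest in torpor 1 among the November libraries (6.27).

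Of the 12 heme synthesis and iron import genes tested, 9 fell and none rose (median -1.81). Of the 12, 11 were lower in every November library, against 10.3% of all genes. ALAS2, the first enzyme of heme synthesis in red cell precursors (NCBI gene 117029629), had levels of 1185 and 1450 in July, 32.6 and 33.7 in torpor, 0.0419 and 0.941 in arousal, and 23.0 and 0.218 in winter active (difference -7.68, SE 0.95, adjusted p = 0.0106). The 2 winter active libraries lay far apart in this gene. SLC25A37, the mitochondrial iron importer of erythroid cells, stood at 176 and 205 in July and at 10.3 to 23.3 in November (difference -3.55, adjusted p = 0.000553). GLRX5, which serves iron-sulfur cluster assembly, kept more of its level, with 232 and 274 against 45.9 to 82.4 (difference -2.19, adjusted p = 0.0024). The 3 members that did not pass were SLC25A38, ABCB10 and ALAD, named for that reason, with differences of -0.63, -0.88 and -0.16. Only 4 of the list passed without summer active 2, and ALAS2 lost the call (adjusted p = 0.111).

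Red cell membrane and skeleton genes passed as lower in 12 of 17 cases and as higher in none (median -3.15). All 17 differences were below 0. Of the 17, 14 were lower in every November library, against 10.3% of all genes. SLC4A1, the anion exchanger of the red cell membrane (NCBI gene 117013589), had levels of 174 and 296 in July, 0.423 and 0.428 in torpor, 0.0186 and 0.0303 in arousal, and 1.39 and 0.0107 in winter active (difference -7.44, SE 0.36, adjusted p = 0.000449). Each November library lay at or under 1.39. EPB42, which ties that exchanger to the skeleton, stood at 28.3 and 48.3 in July and at 0.232 to 1.04 in November (difference -4.60, adjusted p = 0.000553). RHCE, a Rh blood group protein, went from 24.5 and 53.8 to 0.466 to 0.829 (difference -4.53, adjusted p = 0.000892). The differences of these 3 genes lay close together over the 3 states, from -7.20 to -7.80 for SLC4A1 and from -4.49 to -4.58 for RHCE. Their November levels lay near or under 1, where the pseudocount of 1 narrows differences, so evenness over November cannot be read from this. SLC4A1 itself ran from 0.0107 to 1.39 in November. Without summer active 2, 9 of the 17 passed.

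Regulators of red cell formation fell less evenly. Of 13 tested, 6 passed as lower and none as higher (median -1.97), and 8 were lower in every November library, against 10.3% of all genes. All 13 differences were below 0. HEMGN, a nuclear protein of red cell precursors, had levels of 51.0 and 116 in July, 2.78 and 1.59 in torpor, 0.806 and 0.544 in arousal, and 0.686 and 0.615 in winter active (difference -5.25, SE 0.33, adjusted p = 0.000682). TAL1, a transcription factor of blood stem cells and red cell precursors, stood at 18.3 and 26.7 against 2.57 to 4.96 (difference -2.32, adjusted p = 0.00726). KLF1, the activator of adult beta-globin, stood at 16.5 and 39.1 against 0.686 to 6.27 (difference -3.25, adjusted p = 0.0151). GATA1, the main erythroid transcription factor, TFRC, the transferrin receptor, and ZFPM1, a partner of GATA1, made up the 6 and were named after their values were seen, with differences of -2.67, -2.15 and -1.58 (adjusted p = 0.0285, 0.0234 and 0.0224). Only 1 of the list passed without summer active 2, 3 without winter active 1 and 2 without winter active 2. TAL1 lost the call without summer active 2 (adjusted p = 0.0868), and KLF1 without summer active 2 and without winter active 2 (0.146 and 0.0583).

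Genes of late red cell maturation fell in 10 of 13 cases, against 2.26% of all genes, and rose in none (median -2.60). Of the 13, 11 were lower in every November library, against 10.3% of all genes. TMCC2, a membrane protein of the endoplasmic reticulum, stood at 203 and 212 in July and at 3.99 to 13.7 in November (difference -4.71, SE 0.26, adjusted p = 0.000553). YPEL4 stood at 25.9 and 31.6 against 0.102 to 0.355 (difference -4.57, SE 0.21, adjusted p = 0.000449). In both genes the July replicates lay close together and far above November. TSPO2, a cholesterol-binding protein of red cell precursors, stood at 11.6 and 49.7 in July, at 0.921 and 0.062 in torpor and at 0.424 in winter active 1, and was listed at 0 in the other 3 libraries (difference -4.40, adjusted p = 0.00944). PRDX2, the peroxidase of the red cell, fell from 305 and 595 to between 56.6 and 95.0 (difference -2.60, adjusted p = 0.00481). The 3 members that did not pass were FBXO7, XPO7 and MKRN1, named for that reason, with differences of -0.50, -0.50 and 0.21. Without summer active 2, 6 of the list passed.

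Of 18 splenic iron recycling genes, which handle the iron of old red cells, 2 rose and 1 fell (median 0.47). Of all genes 0.657% rose and 2.26% fell. Differences were above 0 for 14 of the 18 and below 0 for 4. The summed level of the list was 19454 in summer active 1, within the November range of 14760 to 24139, and 9386 in summer active 2. STEAP1, a metalloreductase of the family that reduces iron and copper (NCBI gene 117012463), had levels of 7.69 and 7.27 in July, 37.8 and 57.3 in torpor, 33.0 and 42.5 in arousal, and 45.5 and 25.7 in winter active (difference 2.24, SE 0.26, adjusted p = 0.00944). All 6 November libraries lay above July. STEAP2, its neighbour in the family, stood at 7.20 and 3.41 in July, 9.64 and 10.8 in torpor, and 22.1 to 35.3 in the other 4 libraries (difference 1.79, adjusted p = 0.0197). NCOA4, the receptor that delivers ferritin for breakdown, stood at 79.7 and 94.2 against 32.1 to 55.3 (difference -1.004, adjusted p = 0.0353). HMOX1, the enzyme that opens the heme ring, had a wide spread in July, with 1408 and 393, and 952 to 2886 in November (difference 1.12, adjusted p = 0.275). SLC40A1, the iron exporter ferroportin, stood at 533 and 316 against 536 to 1017 (difference 0.86, adjusted p = 0.176). No member of the list passed without summer active 2, and STEAP1 and STEAP2 had adjusted p = 0.0939 and 0.134. STEAP2 also lost the call without torpor 2, winter active 1 or winter active 2 (0.0527 to 0.0729) and with November as 1 group (0.0956). NCOA4 lost it in each fit without 1 library (0.0533 to 0.239), and also with no filter (0.051), with November as 1 group (0.0673), on columns set to 1000000 (0.12) and on such columns without the 4 genes highest in July (0.0597).

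Cell division genes were lower in November. Of 31 mitosis genes, 24 passed as lower and none as higher (median -1.79), and 29 were lower in every November library, against 10.3% of all genes. Of the 31 differences, 30 were below 0. BIRC5, survivin, a part of the complex that oversees chromosome attachment, had levels of 151 and 265 in July, 58.1 and 55.7 in torpor, 26.6 and 24.8 in arousal, and 37.5 and 27.1 in winter active (difference -2.44, SE 0.24, adjusted p = 0.00481). AURKB, the kinase of the same complex, stood at 29.9 and 41.9 against 3.60 to 9.90 (difference -2.28, adjusted p = 0.00659). DLGAP5, a spindle protein, stood at 21.9 and 44.9 against 3.27 to 9.53 (difference -2.39, adjusted p = 0.00944). MKI67, the usual proliferation marker, stood at 19.4 and 31.7 against 3.30 to 10.9, with no overlap, and did not pass (difference -1.79, adjusted p = 0.0643). PRC1 and ANLN, named because they overlapped between the months, had differences of -0.41 and 0.03.

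DNA replication genes showed smaller differences. Of 30 tested, 7 passed as lower and none as higher (median -0.95), and 18 were lower in every November library, against 10.3% of all genes. Of the 30 differences, 29 were below 0. RRM2, the small subunit of ribonucleotide reductase, had levels of 64.6 and 140 in July and 5.83 to 18.5 in November (difference -2.74, SE 0.36, adjusted p = 0.0138). TK1, thymidine kinase, stood at 26.0 and 48.4 against 7.46 to 17.6 (difference -1.56, adjusted p = 0.0329). CDT1, which licenses replication origins, stood at 7.20 and 14.5 against 1.62 to 5.08 (difference -1.64, adjusted p = 0.0427). Both lists had their higher July value in summer active 2: the summed level of the mitosis list was 654 and 1179 in July and 155 to 306 in November, and that of the replication list was 888 and 1633 against 560 to 782. Without summer active 2, 1 mitosis gene and no replication gene passed. The mitosis count was 11 without torpor 1, torpor 2 or winter active 1, 16 without arousal 2 and 6 without winter active 2, and 12 with no filter. The replication count was 13 without summer active 1, 1 without any 1 of torpor 1, torpor 2, arousal 1, arousal 2 or winter active 1, 0 without winter active 2, 1 with no filter, 3 with November as 1 group and 4 on columns set to 1000000 without the 4 genes highest in July. Without summer active 2 AURKB, DLGAP5 and RRM2 had adjusted p = 0.0815, 0.066 and 0.113, and RRM2 had 0.0539 without winter active 2. TK1 and CDT1 lost the call without any 1 library other than summer active 1 (0.0604 to 0.249), with no filter (0.0629 and 0.0782) and with November as 1 group (0.0508 and 0.0516).

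**Figure D3:**
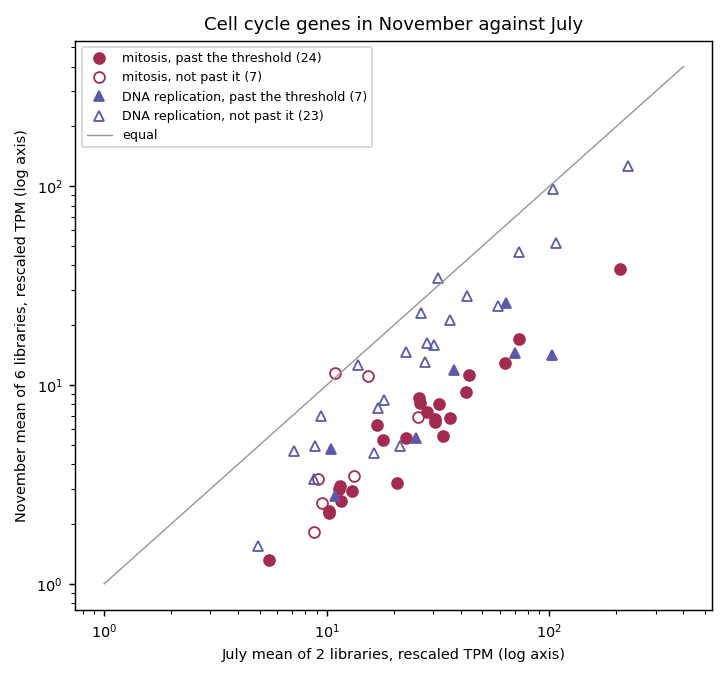
Mean level of each tested cell cycle gene in July (2 libraries, horizontal) and in November (6 libraries, vertical), both in rescaled TPM on log axes. Filled symbols passed the threshold (24 of 31 mitosis genes, 7 of 30 DNA replication genes), and the line marks equal levels. Nearly all symbols lie below the line, the mitosis genes farther below it than most replication genes.

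Among immune cell lists only B cell genes had more than 1 member past the threshold. Of 20 B cell genes, 5 fell, against 2.26% of all genes, and none rose (median -1.16). Differences were below 0 for 19, and 10 of the 20 were lower in every November library, against 10.3% of all genes. VPREB3, a protein of the pre-B cell receptor pathway (NCBI gene 117017614), had levels of 196 and 188 in July, 23.4 and 23.8 in torpor, 31.6 and 23.5 in arousal, and 51.1 and 47.5 in winter active (difference -2.56, SE 0.16, adjusted p = 0.000669). Winter active was the nearest of the 3 states to July. CD79B, a signalling chain of the B cell receptor, stood at 1074 and 916 against 173 to 380 (difference -2.10, adjusted p = 0.00745). FCRLA, an Fc receptor-like protein of B cells, stood at 25.8 and 34.5 against 3.29 to 11.4 (difference -1.90, adjusted p = 0.0179). SPIB and CD79A completed the 5 and were named after their values were seen (differences -1.24 and -1.52). MS4A1, the B cell marker CD20, overlapped between the months, with 187 and 416 against 48.2 to 192 (difference -1.21, adjusted p = 0.114). With summer active 2 left out, only 1 gene of the list passed, and CD79B and FCRLA had adjusted p = 0.0659 and 0.185. The list had 3 calls without torpor 1, torpor 2 or winter active 1, and 2 without winter active 2, where FCRLA had 0.0632.

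Few genes of other immune cell types passed. Differences were below 0 for 17 of 19 T cell genes and 14 of 16 NK and cytotoxic cell genes. Of these lists, 8 T cell genes and 2 NK and cytotoxic cell genes were lower in every November library, against 10.3% of all genes. Of 19 T cell genes (median -0.62) only CD5, a surface brake on T cell receptor signals, fell, from 24.9 and 32.1 to between 7.19 and 17.7 (difference -1.19, adjusted p = 0.0473), and it lost the call in each fit without 1 library (0.0617 to 0.263), with no filter (0.0772), under quantile normalization (0.0526), with November as 1 group (0.0811), on columns set to 1000000 (0.069) and on such columns without the 4 genes highest in July (0.0585). No gene passed among 16 NK and cytotoxic cell genes (median -0.52), 11 plasma cell genes (median 0.31), 15 neutrophil genes (median 0.63), 23 macrophage genes (median 0.71), 10 dendritic cell genes (median 0.06) or 15 platelet genes (median 0.33). At an all-gene median of 0.03, the macrophage list had 20 of 23 differences above 0. VCAM1, an adhesion molecule of red pulp macrophages, stood at 915 and 521 in July and at 1274 to 1825 in November (difference 1.12, adjusted p = 0.0641). Summer active 2 was the lowest library for this list, with a summed level of 11652 against 23297 in summer active 1 and 17030 to 31556 in November, and without it the list median was -0.06, while without summer active 1 the list had 8 genes that rose. S100A8, a neutrophil gene, ranged from 216 to 3214 in November around 523 and 652 in July (difference -0.15, adjusted p = 0.929). No gene of the 20 for spleen stroma and sinus lining passed (median 0.18). The antibody light chain gene IGLL5, noticed for its level, stood at 28742 and 35716 in July and at 25721 to 104589 in November (difference 0.94, adjusted p = 0.19). It passed under quantile normalization, with a difference of 2.88 (adjusted p = 0.000307), and on columns set to 1000000, with 1.52 (0.0165). Quantile normalization sets values by rank, and the 4 genes highest in July lay above IGLL5 in July and below it in November. The part of this change of rank in the IGLL5 result was not tested.

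Of 36 interferon-stimulated genes tested, 3 rose and 2 fell, against 0.657% and 2.26% of all genes (median 0.54). Differences were above 0 for 32 and below 0 for 4. In every November library 9 genes were higher and 2 lower, against 9.37% and 10.3% of all genes. RSAD2, viperin, an antiviral enzyme, had levels of 29.1 and 56.2 in July, 9.25 in winter active 1 and 1.12 to 1.79 in the other 5 November libraries (difference -3.74, SE 0.50, adjusted p = 0.0138). ISG20, an RNA-degrading enzyme, stood at 132 and 287 against 21.8 to 85.5 (difference -2.20, adjusted p = 0.0345). EIF2AK2, the double-stranded RNA kinase PKR, stood at 1.29 and 0.952 in July, 2.29 and 3.18 in torpor, 7.46 and 7.34 in arousal, and 4.86 and 5.97 in winter active (difference 1.47, adjusted p = 0.0182). RIGI, a sensor of viral RNA, stood at 6.05 and 4.45 against 8.96 to 15.1 (difference 0.99, adjusted p = 0.0427). PARP14 was the third to rise and was named after its values were seen (difference 1.22, adjusted p = 0.0405). RSAD2 and ISG20 thus fell while the list median was above 0.

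Of 23 nucleic acid sensing and Toll-like receptor genes 2 rose, STING1 and RIGI (median 0.51), and 9 were higher in every November library, against 9.37% of all genes. STING1, the adaptor that relays the DNA sensing signal (NCBI gene 117016402), had levels of 6.92 and 8.38 in July, 33.2 and 29.5 in torpor, 28.7 and 19.1 in arousal, and 21.9 and 18.1 in winter active (difference 1.56, SE 0.21, adjusted p = 0.0138). TLR8, a receptor for single-stranded RNA, stood at 24.5 and 7.29 against 35.1 to 78.7, with no overlap, and did not pass (difference 1.98, adjusted p = 0.0776). No gene of these 2 lists passed with summer active 2 left out, and RSAD2, EIF2AK2, ISG20, RIGI and STING1 had adjusted p = 0.148, 0.17, 0.228, 0.258 and 0.0924. RIGI lost the call in each fit without 1 library (0.0515 to 0.258), with no filter (0.0731) and with November as 1 group (0.0795). ISG20 lost it without torpor 1, torpor 2, arousal 1, arousal 2 or winter active 2 (0.0624 to 0.0867) and with no filter (0.0678). EIF2AK2 lost it without torpor 2 and winter active 2 (0.0524 and 0.0697) and with November as 1 group (0.0889). None of 13 antigen presentation genes passed, with a median of -0.24 that became 0.31 on columns set to 1000000. None of 15 inflammatory signalling genes passed (median 0.75).

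Genes tied to hibernation physiology mostly did not pass. PDK4, the kinase that turns cells from glucose to fat, was the 1 of 19 fat oxidation genes to rise (list median 0.17). Its levels were 32.5 and 49.7 in July, 81.7 and 67.9 in torpor, 239 and 157 in arousal, and 103 and 119 in winter active (difference 1.52, SE 0.23, adjusted p = 0.0229). All 6 November libraries lay above July, with arousal the highest. NR1D1, the clock repressor REV-ERB alpha, was the 1 of 19 clock genes to fall, from 51.4 and 56.8 to between 11.8 and 31.0 (difference -1.32, adjusted p = 0.0412, list median 0.08). The hour of sampling is not given in the labels. PER1, a clock gene also induced by glucocorticoids, stood at 15.97 and 16.7 in July and at 8.15 and 6.78 in torpor, with 13.1 to 21.2 in the other 4 libraries (difference -0.35, adjusted p = 0.365).

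Among 9 cold-inducible RNA binding and CLK kinase genes, HNRNPDL, an RNA-binding protein, fell from 334 and 324 to between 94.1 and 164 (difference -1.36, adjusted p = 0.0285), and the list median was -0.36. CIRBP and RBM3, the best known cold-inducible RNA-binding proteins, did not pass. CIRBP stood at 440 and 369 against 231 to 385 (difference -0.50, adjusted p = 0.163), and its difference was 0.08 on columns set to 1000000. RBM3 stood at 553 and 890 against 313 to 498 (difference -0.67, adjusted p = 0.151). Of 18 glucocorticoid-induced genes none passed (median -0.18, and 0.39 on columns set to 1000000). FKBP5, a feedback gene of the glucocorticoid receptor, stood at 185 and 112 in July, 91.4 and 96.0 in torpor, and 153 to 213 in the other 4 libraries (difference -0.01, adjusted p = 0.977).

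Of 22 antioxidant enzymes 3 fell, against 2.26% of all genes (median -0.14, and 0.41 on columns set to 1000000). They were PRDX2, given with the late red cell genes, GPX1 and NQO1. GPX1, the selenium-dependent peroxidase abundant in red cells, stood at 3624 and 4064 against 617 to 1463 (difference -2.04, adjusted p = 0.00944). NQO1, a quinone reductase, stood at 15.7 and 21.2 against 3.29 to 10.6 (difference -1.44, adjusted p = 0.0368). Without summer active 2 PDK4, NR1D1, HNRNPDL, GPX1 and NQO1 had adjusted p = 0.0744, 0.24, 0.191, 0.0945 and 0.24. PDK4, NR1D1, NQO1 and HNRNPDL also lost the call without summer active 1 (0.0611, 0.0831, 0.0541 and 0.0702), torpor 1 (0.0565, 0.0815, 0.0739 and 0.0687), torpor 2 (0.058, 0.0751, 0.0884 and 0.0719) and winter active 2 (0.0779, 0.117, 0.106 and 0.0688). PDK4, NR1D1 and NQO1 lost it without winter active 1 (0.0571, 0.0857 and 0.084) and with November as 1 group (0.105, 0.0526 and 0.111). NR1D1, HNRNPDL and NQO1 lost it with no filter (0.0699, 0.0516 and 0.0708).

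No gene passed among 76 cytosolic ribosomal proteins (median -0.40), 35 respiratory chain subunits (median -0.22), 32 proteasome subunits (median -0.07) or 23 chaperones (median 0.35). On columns set to 1000000 the first 3 medians were 0.18, 0.36 and 0.51, so their direction rests on the scale. Of 20 genes of the unfolded protein response, SEL1L, a part of the machine that removes misfolded proteins from the endoplasmic reticulum, rose from 5.72 and 7.28 to between 11.3 and 37.2 (difference 1.70, SE 0.28, adjusted p = 0.0278, list median 0.20). HSP90B1, the HSP90 of that compartment, stood at 219 and 196 against 311 to 427, with no overlap, and did not pass (difference 0.79, adjusted p = 0.0607). SEL1L lost the call without summer active 1 and 2, arousal 1 and 2 and winter active 1 and 2 (0.0541 to 0.168), with no filter (0.0553) and with November as 1 group (0.056).

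The genes that rose most had different roles. Among genes with a name that passed, the widest rise was in PLIN1, the lipid droplet coat protein of fat cells. PLIN1 stood at 0.308 and 0.0584 in July, 7.13 and 4.68 in torpor, 6.28 and 18.8 in arousal, and 5.33 and 25.5 in winter active. Its difference was 3.11 (SE 0.58, adjusted p = 0.0412). It was the 1 of 13 adipocyte genes to pass (list median 1.01). The fat cell hormone ADIPOQ stood at 1.04 and 0.327 in July and at 8.61 to 81.4 in November (difference 3.93, adjusted p = 0.063), and CIDEA, another lipid droplet protein, at 3.69 and 4.34 against 17.6 to 95.4 (difference 3.02, adjusted p = 0.0688). The summed level of the list was 1722 and 2081 in July and 1895 to 3339 in November. Of the 13 genes 5 were higher in every November library, against 9.37% of all genes. The part of adipocytes in the PLIN1 result was not tested. PLIN1 lost the call without either July library (adjusted p = 0.0854 and 0.24), without torpor 1 or 2 (0.0861 and 0.0884), arousal 2 (0.0628) and winter active 2 (0.0583), and with no filter (0.0789).

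CLPSL2, a relative of pancreatic colipase (NCBI gene 117015077), was listed at 0 in both July libraries and stood at 7.97 and 5.04 in torpor, 4.23 and 6.93 in arousal, and 5.89 and 3.48 in winter active. The season difference of CLPSL2 was 2.68 with the pseudocount of 1 (SE 0.29, adjusted p = 0.00687) and 5.78 with a pseudocount of 0.1. It lost the call without summer active 2 (0.0744). It was the 1 of 12 pancreas genes to pass (list median 2.65). Of the 12, 9 were higher in every November library, against 9.37% of all genes. The digestive enzyme gene CTRC ranged from 4.36 to 363 in November around 4.66 and 2.19 in July (difference 3.27, adjusted p = 0.13). SYCN, a zymogen granule protein, ranged from 2.04 to 224 in November, above the July levels of 1.64 and 1.15 (difference 3.44, adjusted p = 0.131). The summed level of the pancreas list was 27.3 and 22.5 in July and 42.4 to 1895 in November, highest in torpor 1. The part of pancreatic tissue in the rise of CLPSL2 was not tested.

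**Figure D4:**
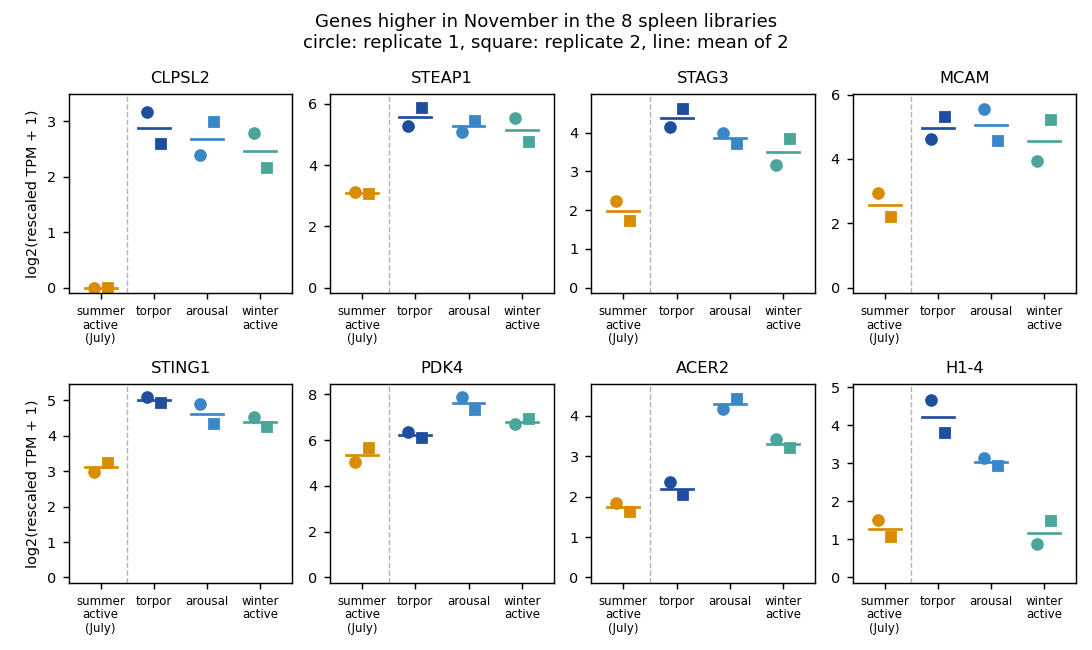
Levels of 8 genes that were higher in November, as log2(rescaled TPM + 1) in the 8 libraries. Circles are replicate 1, squares are replicate 2, lines are means of 2 libraries, and the dashed line parts July from November. In 7 panels all November libraries lie above July, while H1-4 in winter active (0.846 and 1.79) overlaps July (1.86 and 1.08), and ACER2 is higher in arousal than in torpor.

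STAG3, a cohesin subunit best known from meiosis, had levels of 3.75 and 2.31 in July, 16.6 and 23.4 in torpor, 15.0 and 12.1 in arousal, and 7.97 and 13.3 in winter active (difference 1.92, SE 0.27, adjusted p = 0.0158). MCAM, an adhesion molecule of vessel walls, stood at 6.65 and 3.61 against 14.4 to 46.1 (difference 2.29, adjusted p = 0.0412). RHOJ, a small GTPase of endothelial cells, stood at 1.41 and 0.424 against 2.90 to 7.70 (difference 1.76, adjusted p = 0.0206). For these 3 genes no November library overlapped July. ANO6, a scramblase that exposes phosphatidylserine on activated platelets, stood at 12.7 and 11.2 against 25.6 to 65.9 (difference 1.86, adjusted p = 0.018). NLRP12, an inhibitory receptor of myeloid cells, stood at 4.03 and 2.11 against 8.98 to 16.3 (difference 1.83, adjusted p = 0.0228). The 12 widest rises with a gene name were ranked among genes that passed, with no overlap and a mean of at least 5 in November. MCF2L, a guanine nucleotide exchange factor, and TIMP4, an inhibitor of matrix metalloproteinases, completed those 12 (differences 1.80 and 1.70, adjusted p = 0.0301 and 0.0368). These 7 genes had adjusted p from 0.168 to 0.246 without summer active 2. Of the 7, STAG3 lost the call in no other fit without 1 library, and ANO6 lost it in 1 other, that without winter active 2 (0.0635). MCAM lost it without summer active 1, torpor 1, torpor 2, arousal 1 or winter active 2 (0.0554 to 0.0961). MCF2L lost it without torpor 1, torpor 2, arousal 1 or either winter active library (0.0555 to 0.0874), and TIMP4 without either torpor library, either arousal library or winter active 1 (0.0589 to 0.0924). NLRP12 lost it without arousal 1 or either winter active library (0.0557 to 0.0774), and RHOJ without torpor 2 or either winter active library (0.0527 to 0.0746). With no filter MCAM, MCF2L, NLRP12 and TIMP4 lost it (0.051 to 0.076). The locus LOC117022872, singled out after its values were seen, had the widest rise of all, from at most 0.0597 in July to 11.8 to 75.8 in November (difference 5.21, SE 0.48, adjusted p = 0.00385). It was the only higher gene called in all 8 fits without 1 library.

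Season differences that were even over November and uneven ones could be told apart only by description, since the F test passed for no gene. Of the lower genes 25.5%, and of the higher genes 47.2%, had an unadjusted F test p under 0.05. The differences of STEAP1 lay close together, at 2.49 in torpor, 2.18 in arousal and 2.06 in winter active. Those of CLPSL2 did so too, at 2.88, 2.69 and 2.47. The 5 most uneven genes by that test were ACER2, H1-4, HYCC2, FUT11 and PALS1. ACER2, an alkaline ceramidase of the Golgi, stood at 2.60 and 2.06 in July, 4.13 and 3.07 in torpor, 17.0 and 20.3 in arousal, and 9.64 and 8.15 in winter active (season difference 1.53, adjusted p = 0.0138). HYCC2, which helps place a lipid kinase at the plasma membrane, FUT11, a fucosyltransferase, and PALS1, a cell polarity scaffold, shared that order: torpor differed from summer by 0.13 to 0.25, arousal by 1.80 to 1.87 and winter active by 1.37 to 1.54. Their season differences were 1.18, 1.14 and 1.12 (adjusted p = 0.0259, 0.0188 and 0.0311). The linker histone H1-4 was the reverse, at 24.2 and 12.96 in torpor, 7.87 and 6.58 in arousal, and 0.846 and 1.79 in winter active, against 1.86 and 1.08 in July (season difference 1.53, adjusted p = 0.0486). Linker histone genes are related in sequence, and whether reads were shared between them is not known, so the level of H1-4 is uncertain. With November as 1 group all 5 lost the call (adjusted p = 0.214 to 0.37). They also lost it without summer active 2 (0.141 to 0.259). Without 1 of the other 7 libraries ACER2 kept the call and H1-4 lost it each time (0.0609 to 0.121). PALS1 also lost it in all 7 fits (0.0571 to 0.0878), HYCC2 in all but that without summer active 1 (0.057 to 0.0841), and FUT11 in all but those without torpor 1 and arousal 2 (0.0513 to 0.0729). H1-4 also lost it with no filter (0.0881), a filter at a mean of 5 (0.0608), a pseudocount of 0.1 (0.0534), median-of-ratios rescaling (0.0509) and columns set to 1000000 without the 4 genes highest in July (0.0547), and HYCC2 and PALS1 lost it with no filter (0.0514 and 0.0599).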

How the data were processed

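RNA was taken from whole spleens with a column kit and sequenced after standard Illumina library preparation, per the labels' protocols. The deposited table gives 1 signal value per gene and library, a TPM rescaled between libraries by the authors, whose column totals run from 745098 to 1331820. Tools listed in the submitters' processing notes are sleuth 0.30.0 and kallisto 0.46.2. The sources used here do not name the reference, the way transcripts were summed to genes or the scale factors. Plain TPM had been assumed when the tests were chosen, and they were kept on the log scale. All 19652 gene identifiers matched the annotation of assembly mRhiFer1_v1.p, used for names and neighbours only, and mitochondrially encoded genes were not analysed here. The gene just inside the filter was LOC117034676 (mean 1.00025) and the one just outside was SLX4IP (0.999785).

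The values log2(level + 1) of all 8 libraries were fitted with 1 mean per state in limma 3.58.1 (R 4.3.3, eBayes with trend, 4 residual and 3.29 prior degrees of freedom). The season contrast was the mean of the 3 November states minus summer active, with a Benjamini-Hochberg adjusted p under 0.05 as the threshold, and an F test compared the November states. Gene lists are described by counts and medians, with no set test. In fits without 1 library, the lone replicate of its state was assumed to vary like the others.

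The comparison, the 37 gene lists and the rule for named genes were chosen with earlier results of these data known. The rule took the 12 largest rises and falls past the threshold with no overlap of the months. These had a gene symbol and a mean above or equal to 5 in the month that was higher. It also took the 3 smallest p of each list, the 5 genes most uneven over November by the F test, and 17 fixed genes. In each direction it added the 5 genes whose smallest state difference was largest, a ranking by size and not by evenness. A few genes that the rule names are not reported here. The alternatives tried were columns set to 1000000, quantile normalization, median-of-ratios rescaling, a filter at a mean of 5 or none, a pseudocount of 0.1, robust eBayes, a replicate block, November as 1 group of 6 and leaving out each library. Columns set to 1000000 without the 4 genes highest in July are an alternative chosen after seeing the data. The season test was also tried on 10 simulated sets of 13542 genes, each with differences planted in 200. It called 26%, 88.4% and 93.5% of planted log2 differences of 1, 2 and 3, and 5% of its calls were false. Those rates describe the simulation only. Whether they hold for the real libraries, where the July replicates differed more than those of the November states, was not tested.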

Additional observations from a re-analysis of the deposited data

Results flagged for a closer look

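Among the 6 November libraries, 6 of 135 named genes had 1 library standing apart from the other 5 by more than Dixon's 95% critical gap. Chance flags about 1 in 20 groups. In torpor 1 the level was high for 2 red cell genes: HBQ1 stood at 0.430 (0 to 0.0840 in the other 5) and KLF1 at 6.27 (0.686 to 1.86), each below both July libraries. RRM2 was low in arousal 2, at 5.83 (13.4 to 18.5 in the others), and RBM3 was low in arousal 1, at 313 (459 to 498). RSAD2 was high in winter active 1, at 9.25 (1.12 to 1.79), and so was KRT4, a keratin of squamous epithelium, at 1.21 (0 to 0.144). The cause was not tested.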

How the results depend on the processing

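The number of July libraries, 2, limits every result, and the unknown depth limits those at low levels. Of 2469 values of named genes under the alternatives, 2142 kept direction and side of the threshold, 238 lost the call, 65 gained it and 24 turned direction. Of 666 list medians, 607 stayed within the spread between libraries and 59 moved. With no filter 36 genes were higher in November and 1 differed among its states. With November as 1 group of 6, 49 were higher. Columns set to 1000000 gave 4470 higher genes, 5052 with all November libraries above July and 361 with all below. Leaving out 1 library gave 2 to 185 higher and 43 to 449 lower genes, 1319 to 2981 with all November libraries above and 1494 to 3073 with all below, and 0 to 1 differing among November states. The numbers of the replicates share no stated origin: deviations of same-numbered libraries correlated at -0.191 to 0.322 over pairs of states, and a fit with the replicate block gave 109 higher and 307 lower genes and none differing among November states. Of the named genes that block ended the calls of CDT1, H1-4, LOC117019384, LOC117030460, MCAM and RIGI (adjusted p = 0.0510 to 0.0574).

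Differences that turned direction were, under quantile normalization, 0.0506 for CD74, 0.13 for FKBP5 and 0.0543 for S100A8. On columns set to 1000000 they were 0.0092 for PSMB8, 0.23 for TXNIP, 0.0346 for PDK2, 0.0771 for NDUFA2, 0.19 for ATP5F1D, 0.17 for PSMB6, 0.0789 for CIRBP, 0.20 for PER1, 0.56 for FKBP5 and 0.43 for S100A8, and with the 4 genes left out of the totals 0.0725 for FKBP5. None of these genes passed the threshold as reported. Without 1 library the difference ranged from -3.75 to 2.10 for TTR, -3.55 to 1.78 for CPS1, -2.46 to 4.18 for ALB, -0.20 to 1.47 for TNNT3, -0.38 to 0.35 for FKBP5 and -0.68 to 0.38 for S100A8. The cause of these turns was not tested.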
